A study of Mus musculus with 2 samples.

Results

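The citric acid cycle oxidises acetyl-CoA to carbon dioxide in the mitochondrial matrix and passes the electrons to the respiratory chain. Pyruvate enters the matrix through the mitochondrial pyruvate carrier and is turned into acetyl-CoA by the pyruvate dehydrogenase complex, which dedicated kinases switch off and phosphatases switch on. In skeletal muscle the rate of the cycle follows work, and calcium is known to stimulate the dehydrogenases that supply it. Described here are 37 genes of the cycle, of pyruvate entry and of the neighbouring malate, aspartate and oxaloacetate reactions. They were chosen by name among annotated genes, and all 37 were found, of 14704 annotated genes with at least 1 read.

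The samples were gastrocnemius, the large calf muscle, of male B6CASTF1/J mice at 14 days of age. These mice are the first-generation offspring of C57BL/6J and CAST/EiJ parents. The series holds 1 group with 2 libraries, labelled as biological replicates 1 and 2, each made from 2 µg of total RNA for long-read RNA sequencing, in which 1 read covers 1 RNA molecule over all or part of its length. The label of each biosample names 3 males, but both samples carry 1 donor identifier, and neither pooling nor separate animals are stated. No treatment, genotype or age was compared. Every ± below is the SD of 2 libraries, which may be partly technical, and tests between the libraries compare these libraries and not conditions.

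Without spike-in RNAs, 1094607 reads were counted in replicate 1 and 626289 in replicate 2. Levels are given as CPM, reads of a gene per 1000000 of these reads, and were not divided by length because 1 read stands for 1 molecule. A single read was worth 0.914 CPM in replicate 1 and 1.60 CPM in replicate 2, and a count of 0 allows up to 3 reads, 2.74 and 4.79 CPM. The tissue label was checked against marker genes. All 10 skeletal muscle markers had reads, with summed levels of 312381 CPM in replicate 1 and 296044 CPM in replicate 2. Of the 5 heart genes, Nppa, Myl7 and Mybpc3 were at 0 reads, Myh6 had 3 reads in replicate 1 and 1 in replicate 2, and Tnni3 had 0 and 1. All 4 liver genes were at 0 reads. Summed markers of other cells within muscle stood at unequal levels in the libraries. The 5 fibroblast genes summed to 7574 and 3002 CPM and the 5 endothelial genes to 375 and 246 CPM. The 4 erythroid genes summed to 621 and 1138 CPM and the 4 nerve and Schwann cell genes to 301 and 533 CPM. The 6 adipocyte genes summed to 116 and 257 CPM, of which Fabp4 held 114 and 208 CPM. Adipoq, Plin1, Cidec and Lep had 0 reads in replicate 1. The 3 brown adipocyte genes summed to 5.48 and 7.98 CPM, all from Cidea, as Ucp1 and Elovl3 had 0 reads in both libraries. In RNA from whole tissue, fewer cells of a type and less RNA per cell cannot be told apart.

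The 37 genes held 16585 reads in replicate 1 and 7301 in replicate 2, which was 1.52% (exact Clopper-Pearson 95% interval 1.49% to 1.54%) and 1.17% (1.14% to 1.19%) of the libraries. These intervals cover counting error only, since the reads carry no molecular identifiers. The median gene of the pathway stood at 240.2 CPM (mean of the libraries), against 6.73 CPM for the median annotated gene with a read. Of the 37, 27 were among the 1000 most abundant genes. By level, 10 genes reached 500 CPM, 17 lay between 100 and 500 CPM, and 10 lay under 100 CPM. The 10 most abundant held 61.4% and 59.5% of the pathway's reads.

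**Figure D1:**
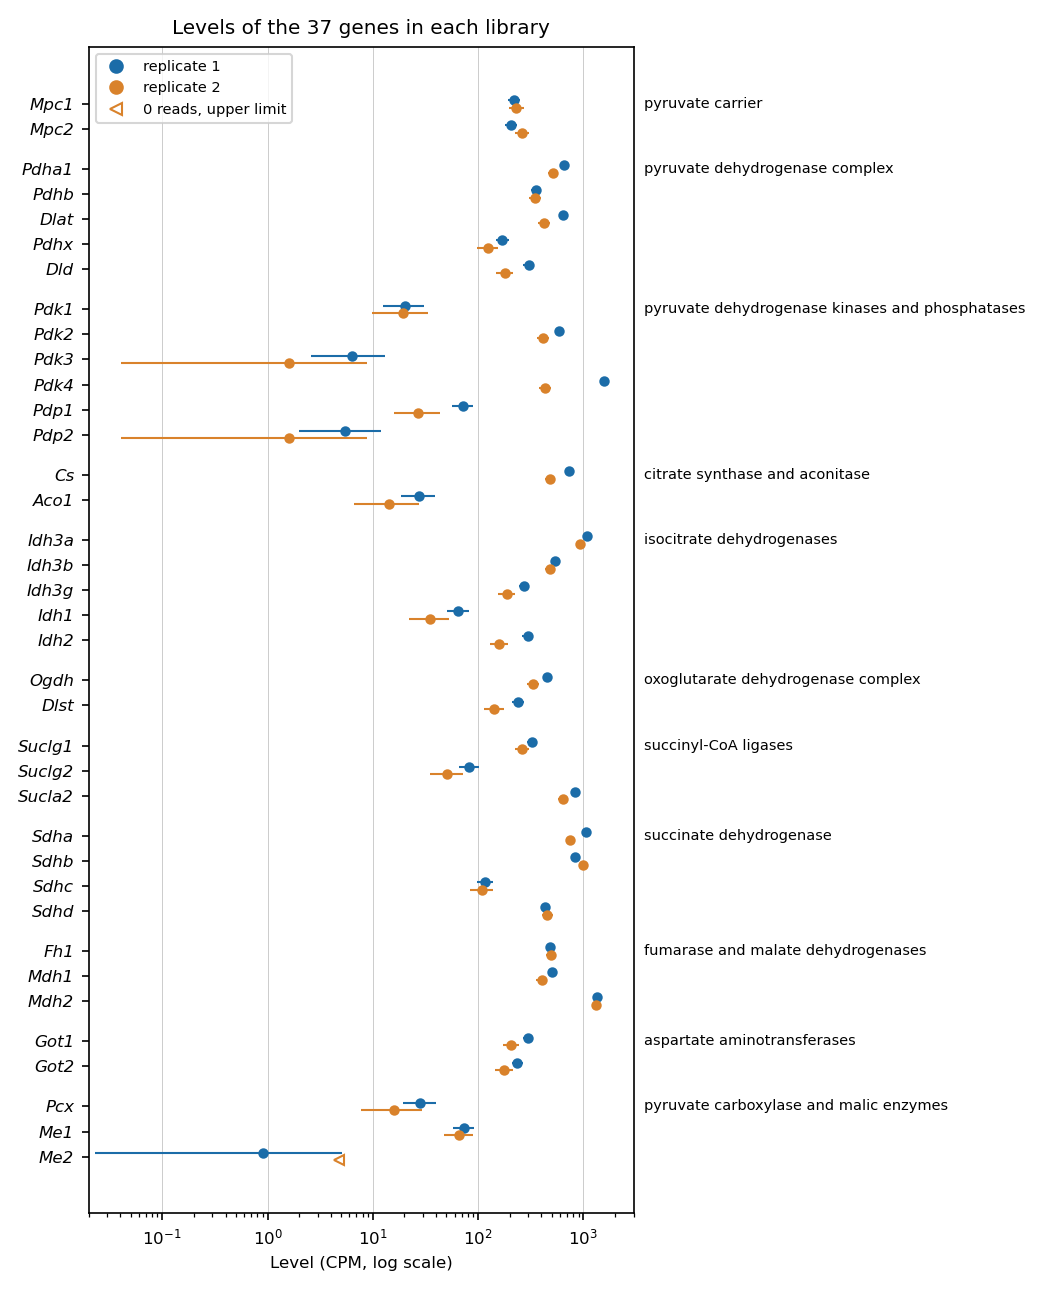
Level of each of the 37 genes in CPM on a log axis, in replicate 1 (blue) and replicate 2 (orange), ordered by role, with exact 95% counting intervals; Dld, shared by both dehydrogenase complexes, is drawn once. Genes of the mitochondrial cycle mostly sat above 100 CPM, while Pdk3, Pdp2 and Me2 had under 10 reads in all.

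Pyruvate entry was well represented. The carrier's subunits, Mpc1 and Mpc2, form a heterodimer in the inner mitochondrial membrane. Mpc1 stood at 219 CPM in replicate 1 and 232 CPM in replicate 2, and Mpc2 at 205 and 263 CPM. Mpc1 made up 51.7% and 46.8% of the reads of the pair, so which subunit led changed between the libraries and both intervals held 50%. The Mpc1 value is uncertain, because a processed pseudogene, Mpc1-ps, which is 99.7% identical over 34.4% of the transcript, was given 17 reads in replicate 1 and 122 in replicate 2. Gene and pseudogene together had 257 and 267 reads, or 235 and 426 CPM. Mpc2 had 224 and 165 reads, so Mpc1 led in both libraries when the pseudogene's reads were added to it. How many of the pseudogene's reads came from Mpc1 was not tested.

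Of the pyruvate dehydrogenase complex, Pdha1 and Pdhb encode the subunits of the decarboxylating enzyme, Dlat the acetyl transferase, Pdhx the binding protein that anchors the shared dehydrogenase, and Dld that dehydrogenase. Their sum was 2122 CPM in replicate 1 and 1584 CPM in replicate 2. Pdha1, on the X chromosome, led with 661 and 513 CPM, followed by Dlat with 638 and 423 CPM. Pdhb had 352 and 346 CPM, Dld 301 and 179 CPM, and Pdhx 170 and 123 CPM. Pdha1 reads outnumbered those of its partner Pdhb by 1.88 and 1.48 times, and Dlat reads those of Pdhx by 3.75 and 3.44 times. The order from Pdha1 to Dlat was the same in both libraries, though their levels, 587 ± 105 and 530.4 ± 152 CPM, did not differ beyond the spread. Pdhx was the lowest in both.

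The kinases that inactivate the complex were dominated by Pdk4 and Pdk2. Pdk4, on chromosome 6, had 1727 reads, 1578 CPM, in replicate 1 and 271 reads, 433 CPM, in replicate 2. Pdk2 had 581 and 414 CPM. Pdk4 thus made up 72.2% of kinase reads in replicate 1 (95% interval 70.4% to 74.0%) and 49.9% in replicate 2 (45.6% to 54.2%), and Pdk2 26.6% and 47.7%. In replicate 2 the intervals of these shares overlapped, and over both libraries the levels of Pdk4, 1005 ± 810 CPM, and Pdk2, 497 ± 118 CPM, differed by less than the spread of Pdk4. Pdk1 had 20.1 and 19.2 CPM, and Pdk3, an X-linked isoform, had 7 reads in replicate 1 and 1 in replicate 2. Pdk2 reads outnumbered those of Pdk1 by 28.9 and 21.6 times.

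The phosphatases that reactivate the complex were lower than Pdk4 and Pdk2, while Pdp1 stood above Pdk1 and Pdk3 in both libraries. Pdp1, whose enzyme is known to be stimulated by calcium, had 71.3 CPM in replicate 1 and 27.1 CPM in replicate 2. Pdp2 had 6 reads and 1 read. Pdp1 held 92.9% of the phosphatase reads in replicate 1 and 94.4% in replicate 2, where the interval was wide (72.7% to 99.9%) because only 18 reads were counted. For each Pdp1 read there were 22.1 and 15.9 Pdk4 reads and 8.15 and 15.2 Pdk2 reads. The 6 kinases and phosphatases together had 2262 CPM in replicate 1 and 896 CPM in replicate 2.

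Citrate synthase (Cs), which joins acetyl-CoA to oxaloacetate and is widely used as a marker of mitochondrial content, had 734 and 485 CPM. Aco1, the cytosolic aconitase that also serves as an iron-sensing RNA-binding protein, had 27.4 and 14.4 CPM. Isocitrate dehydrogenase exists as an NAD-linked mitochondrial heterooligomer and as NADP-linked enzymes. The catalytic alpha subunit Idh3a had 1093 and 923 CPM, the beta subunit Idh3b 539 and 485 CPM, and the gamma subunit Idh3g 274 and 188 CPM. Idh3a made up 57.6% ± 0.329 of the reads of the NAD-linked enzyme, Idh3b 29.3% ± 1.496 and Idh3g 13.1% ± 1.83 (SD, n = 2), so the order of the 3 subunits held beyond the spread. The purified enzyme is known to contain more alpha than beta or gamma subunits, but read shares do not measure protein. Mean lengths weighted by reads were 2546 bases for Idh3a, 1223 for Idh3b and 1324 for Idh3g. The part of length in these shares was not tested. Among the NADP-linked enzymes, the mitochondrial Idh2 had 295 and 160 CPM and the cytosolic Idh1 64.9 and 35.1 CPM. Idh2 took 82.0% of the pair in each library.

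The oxoglutarate dehydrogenase complex is built like that of pyruvate and shares Dld. Ogdh, its decarboxylating subunit, had 449 and 332 CPM, and Dlst, the succinyl transferase, 240.3 and 142 CPM. Succinyl-CoA ligase pairs the alpha subunit Suclg1 (326 and 262 CPM) with an ATP-forming beta subunit, Sucla2, or a GTP-forming one, Suclg2. Sucla2 had 840 CPM in replicate 1 and 634 CPM in replicate 2, and Suclg2 82.2 and 51.1 CPM. Sucla2 held 91.8% ± 1.03 of beta subunit reads, 10.2 and 12.4 reads for each Suclg2 read. Sucla2 reads also outnumbered those of the shared alpha subunit in both libraries.

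Succinate dehydrogenase, which is also complex II of the respiratory chain, has 4 subunits. The flavoprotein Sdha had 1053 and 744 CPM and the iron-sulfur subunit Sdhb 825 and 985 CPM. The membrane anchors Sdhd and Sdhc had 430.3 and 455 CPM and 117 and 109 CPM. Sdhc was the lowest in both libraries, at 4.78% ± 0.0606 of the complex's reads, and Sdhb reads outnumbered it by 7.05 and 9.07 times. Sdha led in replicate 1 (43.4% of the complex's reads, against 34.0% for Sdhb) and Sdhb in replicate 2 (43.0%, against 32.5% for Sdha), so their order was not fixed. The transcripts differ in length, 2888 bases for Sdha and 1140 bases for Sdhb as means weighted by reads, and the ratio between the libraries moved with length as described below.

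Fumarase (Fh1) had 477 and 495 CPM. Mdh2, the mitochondrial malate dehydrogenase that closes the cycle, had 1338 and 1316 CPM. By the mean of the libraries Mdh2 was the most abundant of the 37 and ranked 61 among all annotated genes. In replicate 1 it stood below Pdk4, which had 1578 CPM. Cytosolic Mdh1 had 502 and 401 CPM, so Mdh2 took 74.7% ± 2.79 of the pair. The aspartate aminotransferases, which with the malate dehydrogenases carry reducing equivalents into mitochondria, were near to each other when all reads were counted. Cytosolic Got1 had 297 and 208 CPM and mitochondrial Got2 237 and 177 CPM, and Got1 made up 54.8% ± 1.21 of the pair. Without reads that overlapped a gene but did not match its splicing, Got1 made up 64.6% of the pair. Pyruvate carboxylase (Pcx), which refills oxaloacetate, had 28.3 and 16.0 CPM. Cytosolic malic enzyme (Me1) had 73.1 and 65.5 CPM, and mitochondrial Me2 had 1 read in replicate 1 and 0 in replicate 2. That 0 allows up to 4.79 CPM by the limit of 3 reads, and 5.89 CPM by the Clopper-Pearson interval.

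**Figure D2:**
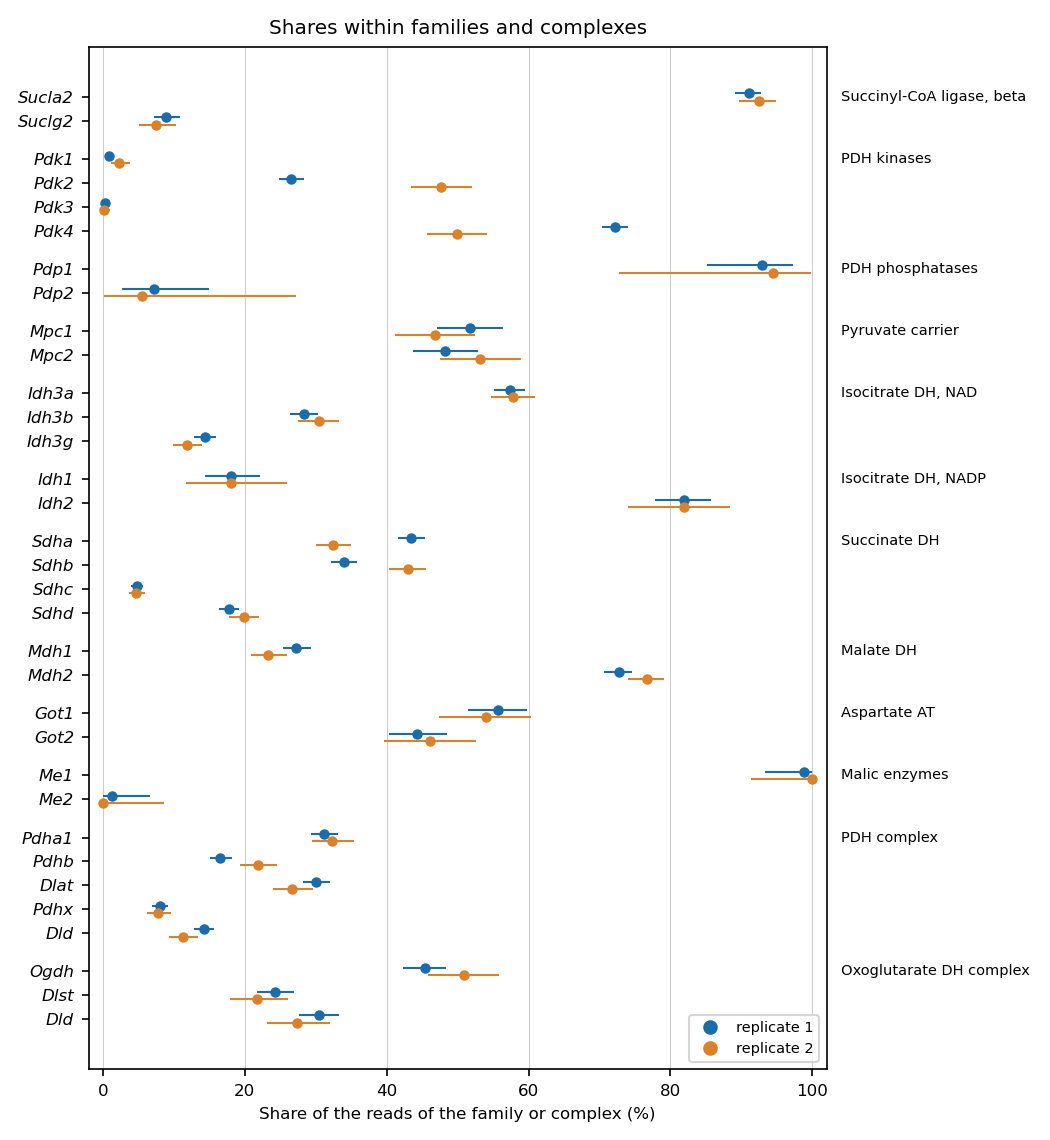
Share of each gene in the reads of its family or complex (percent), in replicate 1 (blue) and replicate 2 (orange), with exact 95% counting intervals. Sucla2, Pdp1, Idh2, Mdh2 and Me1 led their pairs in both libraries, while the intervals of Pdk4 and Pdk2, and of Sdha and Sdhb, did not overlap between the libraries.

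Genes around the pathway were counted from 7 lists of 37 genes. Of these, 35 had reads, 29 had enough reads to be tested and 5 differed in share between the libraries, 2 higher in replicate 1 and 3 higher in replicate 2, by the test given below, which 13.5% of all 7955 genes tested passed. Mrps36, a small protein that links Dld to the oxoglutarate dehydrogenase core, had 119 and 214 CPM. Its list also held the mitochondrial malic enzyme Me3, with 136 and 97.4 CPM, and Pdpr, the regulatory subunit of the phosphatase, with 22.8 and 14.4 CPM. Me3 therefore stood above Me2, which had 1 read. Ogdhl and Dhtkd1, relatives of Ogdh, had 1 read each over both libraries, and the testis form Pdha2 had 0.

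Among assembly factors of succinate dehydrogenase, Sdhaf4 had 82.2 and 201 CPM, Sdhaf2 42.9 and 28.7 CPM, and Sdhaf1 21.01 and 22.4 CPM. Of the genes that attach lipoate to Dlat and Dlst, Lias had 68.5 and 51.1 CPM, Lipt1 10.05 and 6.39 CPM, and Lipt2 1.83 and 6.39 CPM. The carriers were led by the oxoglutarate carrier Slc25a11 (509 and 383 CPM) and the aspartate-glutamate carrier Slc25a12 (344 and 273 CPM), both partners of the malate-aspartate shuttle. The other aspartate-glutamate carrier, Slc25a13, had 2 reads and 0 reads, and the dicarboxylate carrier Slc25a10 12.8 and 4.79 CPM.

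Among genes that supply or draw off intermediates, Mcee, the epimerase of the propionate route, had 106 and 445 CPM, mitochondrial alanine aminotransferase Gpt2 164 and 125 CPM, and glutamate dehydrogenase Glud1 123 and 105 CPM. Pck1, the cytosolic phosphoenolpyruvate carboxykinase of liver, had 0 reads. The kinase of the branched-chain ketoacid complex, Bckdk, had 224 and 161 CPM, above the subunits Bckdha (75.8 and 62.3 CPM) and Bckdhb (21.9 and 27.1 CPM). The mitochondrial deacylases were low, with Sirt3 at 35.6 and 31.9 CPM, Sirt5 at 15.5 and 6.39 CPM and Sirt4 at 10.96 and 3.19 CPM.

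Each gene's share of the library was compared between replicate 1 and replicate 2 by a two-sided Fisher's exact test. P-values were adjusted by Benjamini-Hochberg over the 7955 genes that reached 10 reads in all. Of all genes tested, 13.5% passed an adjusted p of 0.05, 6.89% higher in replicate 1 and 6.56% higher in replicate 2. Of the 37 genes, 34 were tested and 17 passed, 16 higher in replicate 1 and 1, Sdhb, higher in replicate 2. Over both directions, 29 of 34 leaned to replicate 1, the side to which the median of all genes tested also leaned. The share of all genes that leaned that way was not counted. Among genes with at least 50 reads, where the background was 33.2% of 3271 genes, 20 of 31 passed, 18 of them higher in replicate 1. With TMM-scaled totals 12 of 34 passed, 10 of them higher in replicate 1, against 11.7% of all genes. The median log2 ratio of the 34 genes was 0.42, against 0.24 for all genes tested. The test counts reads alone as error, and power rises with reads, of which these genes had many.

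The direction moved with transcript length. Genes with transcripts under 1500 bases had a median log2 ratio of -0.40 over all genes, and those of 3000 bases or more of 0.42. Of the 37, the 7 tested under 1500 bases had a median of -0.08, the 17 of 1500 to under 3000 bases 0.46, and the 10 of 3000 bases or more 0.63. When each gene was compared with the median ratio at its length, 4 of 34 passed, against 6.40% of 7878 genes. These were Pdk4 (log2 ratio beyond length 1.45, adjusted p = 3.90e-64), Idh2 (0.69, adjusted p = 0.000496) and Idh3g (0.49, adjusted p = 0.0276), all higher in replicate 1, and Fh1 (-0.41, adjusted p = 0.00270), lower in replicate 1, by an exact binomial test adjusted over those genes. The Fh1 count joined Fh1-201 of 2636 bases (457 and 223 reads) with Fh1-203 of 936 bases (48 and 82 reads). Fh1 was compared at its read-weighted length of 2352 bases, and the part of Fh1-203 in its difference was not tested.

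When the variance seen over all genes, 9.11 times that of counting, was taken as the error, 1 of 34 passed, against 1.16% of 7955 genes. This was Pdk4. The wider error was a mean over all genes of this same comparison, with the length trend left in. It does not measure the spread of a single gene between replicates. The log2 ratio of Pdk4 was 1.86 (adjusted p = 4.49e-113 by Fisher's exact test and 1.14e-09 by an F test with the wider error). Of 1786 genes with at least 100 reads, 5, Pdk4 included, had a ratio at or above that of Pdk4. The other 15 genes called higher in replicate 1 had log2 ratios from 0.24 (Idh3a) to 1.36 (Pdp1). Pdk2 differed by 0.49, Cs by 0.59, and Sdhb by -0.26. The summed fibroblast markers, 5 of 5 with reads, were also higher in replicate 1, and the adipocyte markers, 5 of 6 with reads, were lower there, with Adipoq, Plin1, Cidec and Lep at 0 reads in replicate 1 and Lep at 0 in replicate 2. The endothelial sum was higher in replicate 1, though 1 of its 5 genes passed and Egfl7 leaned the other way (log2 ratio -0.21). The erythroid and the nerve and Schwann cell sums were lower in replicate 1, though Alas2 leaned the other way (1.67). These marker sums were not corrected for transcript length, with which the ratio moved. The part of these cell types in the Pdk4 difference was not tested.

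**Figure D3:**
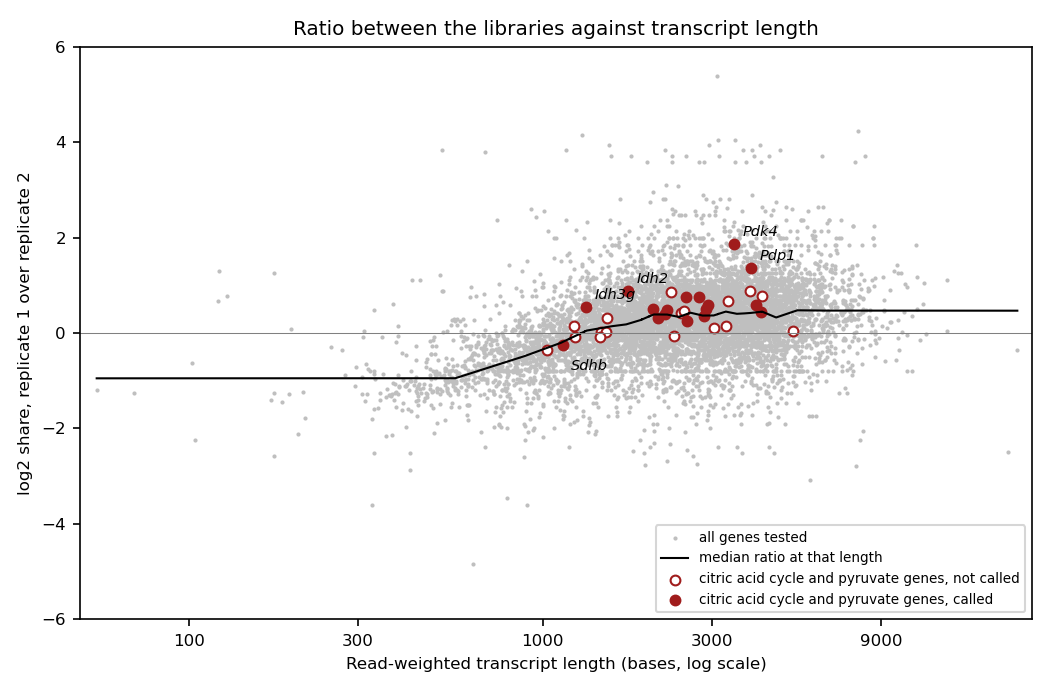
Log2 ratio of read shares, replicate 1 over replicate 2, against the read-weighted transcript length in bases (log axis), for all genes tested (grey) and the 34 tested genes of the pathway (red, filled where called by Fisher's exact test). Pdk4 lay 1.45 above the running median (black), and most other genes of the pathway followed the line.

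The files class each transcript model by its match to the annotation (GENCODE M21). A read may follow an annotated transcript, combine known splice sites in a new way, use a new splice site, match only part of a transcript, or overlap the gene without matching its splicing. Annotated transcripts held 82.5% of the pathway's reads in replicate 1 and 79.9% in replicate 2, against 71.8% and 71.7% for all annotated genes. New combinations held 5.46% and 7.45%, against 3.86% and 4.07% for all annotated genes, and models with a new splice site 3.75% and 2.18%, against 11.8% and 7.95%. Partial matches held 7.47% and 8.04%, against 10.2% and 11.6% for all annotated genes, and unmatched reads 0.862% and 2.47%, against 2.34% and 4.69%. The files listed 539 and 334 models for these genes, of which 50.5% and 50.6% rested on 1 read.

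Complete models, meaning those of the annotated and both new spliced classes, were joined by their chain of introns. In 24 genes with at least 50 complete reads in each library, the same chain led in both libraries in all 24. Its median share was 97.3% of complete reads, beside 95.5% for 1044 genes that met the same minimum. The share was over 90% in 22 of the 24, up to 99.3% ± 0.137 for Mdh2. The exceptions were Ogdh, at 79.4% ± 3.91, and Fh1, at 80.8% ± 11.9. The leading chain was an annotated transcript in 21 genes and an unannotated one in Idh3b, Idh3g and Mpc1. The annotated transcript was Idh3a-205 for Idh3a, Sucla2-203 for Sucla2 and the one numbered 201 for each of the other genes. Pdp1 had too few reads for the 24, and it divided them between Pdp1-203 with 55 and 15 reads, Pdp1-206 with 7 and 1, and Pdp1-205 with 6 and 1.

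**Figure D4:**
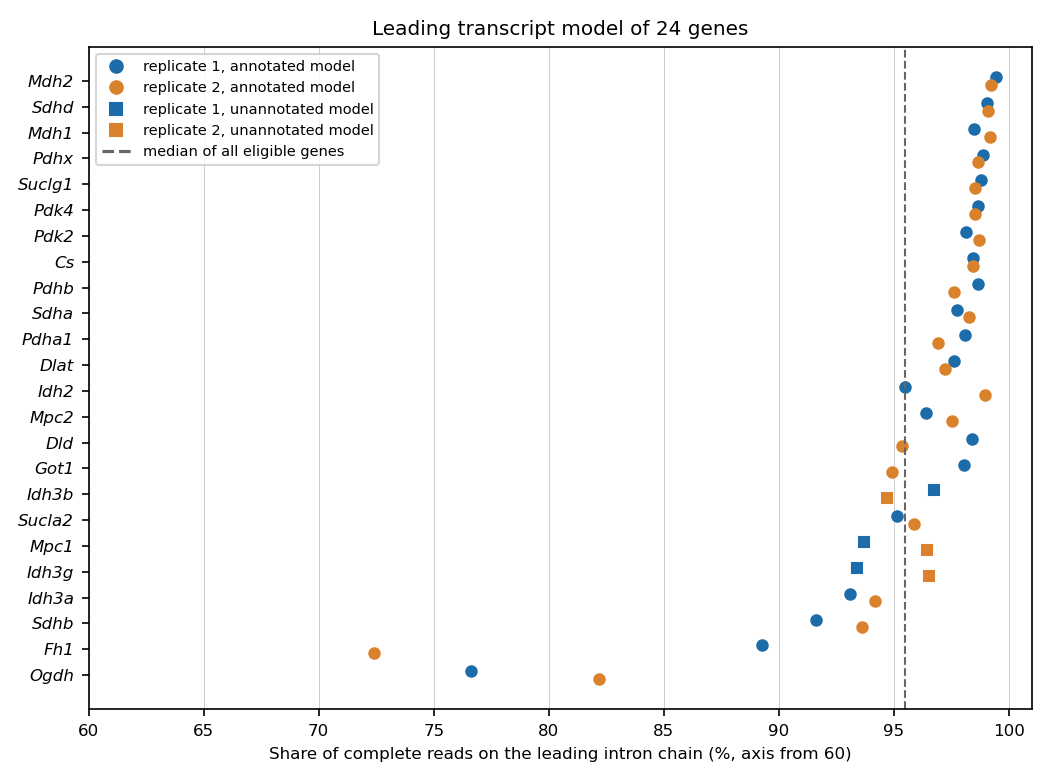
Share of complete reads on the leading intron chain (percent, axis from 60) in replicate 1 (blue) and replicate 2 (orange) of 24 genes, circles for annotated and squares for unannotated chains. Ogdh and Fh1 lay under 90% in both libraries, and the dashed line marks 95.5%, the median of all 1044 genes.

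Idh3b (chromosome 2, 130279309 to 130284547, minus strand) was led by a 12-exon model whose 3′ end differs from the annotated protein-coding Idh3b-201. The model held 532 reads in replicate 1 and 249 in replicate 2, or 95.7% ± 1.45 of complete reads. Of all Idh3b reads it held 90.2% and 81.9%. Its last intron skipped 289 bases, positions 130279438 to 130279726, that hold the annotated coding end and stop codon. Of the reads with either last intron, 566 of 576 and 276 of 282 used the longer one (98.1% ± 0.277). In replicate 2, 15 further reads lay on an unmatched model from 130279313 to 130279726, which covers the 289 bases. Replicate 1 had 0 unmatched reads. Counting codons from the annotated start, the frame of the model ran 380 codons, against 384 for Idh3b-201, with 72 coding bases after the last shared exon, against 84. In human, alternative splicing at this end of the gene is known to give beta subunits with different carboxyl ends. The lines below show how the coding sequence parts, with the last bases of the shared exon in lower case and the first 30 bases that follow it in capitals, read from GENCODE M21 transcripts (GRCm38, mm10, minus strand), chr2:130279408-130280286 for the leading model and chr2:130279697-130280286 for Idh3b-201.
Idh3b leading model: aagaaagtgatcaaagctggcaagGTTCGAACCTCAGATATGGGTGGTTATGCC
Idh3b-201: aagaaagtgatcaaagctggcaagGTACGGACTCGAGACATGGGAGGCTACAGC

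Idh3g and Mpc1 were led by models that lack a very short annotated exon. In Idh3g (chromosome X, minus strand) the 12-base exon of Idh3g-201 at 73782298 to 73782309 was missing from 275 of 276 reads that crossed it in replicate 1 and from 116 of 116 in replicate 2, and these models held 4 more bases, 73782671 to 73782674, at the end of the exon before. In Mpc1 (chromosome 17, plus strand) the 4-base exon of Mpc1-208 at 8293415 to 8293418 was skipped in 224 of 232 and 138 of 140 reads with either junction. The intron that leaves this exon was used in 0 reads of either library. As listed, both models break the frame, which ran 46 codons for Idh3g, against 393 for Idh3g-201, and 42 codons for Mpc1, against 109 for Mpc1-208. The tables hold no read sequence, so whether the reads carried these bases was not tested. A second annotated form, Mpc1-201, places a 4-base exon elsewhere, at 8296527 to 8296530, with another last base. The annotated coding bases around these exons, from GENCODE M21 on GRCm38 (mm10), are shown for what the models lack, with the short exon in capitals, at chrX:73782080-73782698 on the minus strand and chr17:8283938-8296558 on the plus strand.
Idh3g-201: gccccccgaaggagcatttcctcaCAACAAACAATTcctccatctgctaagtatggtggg
Mpc1-208: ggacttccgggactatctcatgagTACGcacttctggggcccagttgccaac
Mpc1-201: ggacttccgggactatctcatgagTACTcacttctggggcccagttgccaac

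Ogdh (chromosome 11, plus strand) has alternative exons in its early coding part, of 91, 103 and 45 bases, which in human are known to be joined in several ways and to bear on the enzyme's calcium response. Reads that ran from the exon before them to the exon after them numbered 323 in replicate 1 and 132 in replicate 2. The 103-base exon stood alone between them in 318 and 131 of these reads (98.8% ± 0.559). It was joined to the 45-base exon in 4 reads and 1 read. The 91-base exon was whole in 0 reads, and its first 69 bases were joined to the 103-base exon in 1 read of replicate 1. A count of 0 among 132 reads leaves an upper Clopper-Pearson 95% limit of 2.76% in replicate 2. The exons are printed to show which of them muscle reads carried, from GENCODE M21 on GRCm38 (mm10), with no part in capitals, at chr11:6316765-6316855, chr11:6316978-6317080 and chr11:6324878-6324922.
Ogdh 91-base exon: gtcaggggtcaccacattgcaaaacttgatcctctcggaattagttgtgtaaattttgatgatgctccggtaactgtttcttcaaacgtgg
Ogdh 103-base exon: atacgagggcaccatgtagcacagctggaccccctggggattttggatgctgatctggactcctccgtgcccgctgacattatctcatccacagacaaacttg
Ogdh 45-base exon: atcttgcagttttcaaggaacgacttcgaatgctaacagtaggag

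Reads of Ogdh also divided over several first exons, and its complete reads lay on 30 intron chains. The part of the first exons in its lower leading share was not tested. Among reads with a complete first exon, 82.9% in replicate 1 and 88.3% in replicate 2 ended it at the donor site of Ogdh-201 (position 6291693). The donor of Ogdh-204 was used in 7.28% and 3.13%, that of Ogdh-207 in 5.70% and 3.91%, and that of Ogdh-202 in 2.53% and 2.34%. A model with the Ogdh-207 first exon kept the 1023 codons of Ogdh-201, because these first exons lie before the start codon. Partial matches were frequent in this gene of 4127 bases, 34.6% of its reads in replicate 1 and 38.0% in replicate 2, against medians of 5.15% and 4.25% in 27 genes of the pathway with at least 50 reads in each library. Dlst had 35.7% and 48.3% partial matches, and 55 and 36 of its reads were on partial models of a single exon.

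Sdhb (chromosome 4, plus strand) had a second, unannotated model with 64 reads in replicate 1 and 36 in replicate 2, 6.66% ± 0.832 of complete reads. It takes the acceptor 6 bases further in, which removes positions 140966495 to 140966500 and keeps the frame, with 280 codons in place of 282. Among reads that crossed the junction its share was 7.28% (5.65% to 9.20%) and 6.07% (4.29% to 8.31%), which did not differ by Fisher's exact test (p = 0.399). The annotated junction is shown with the 6 bases in capitals, from GENCODE M21 on GRCm38 (mm10), chr4:140961453-140966524.
Sdhb-201: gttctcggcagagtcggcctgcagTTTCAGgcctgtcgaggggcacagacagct

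Got2 (chromosome 8, minus strand) was divided between models, while Got1-201 held 96.5% ± 2.21 of the complete reads of Got1. Got2-201 held 95 of 177 complete reads in replicate 1 and 27 of 48 in replicate 2 (55.0% ± 1.82), and an unannotated model 74 and 20 reads (41.7% ± 0.0999). The unannotated model shifts both ends of 1 intron by 4 bases, so that it holds positions 95866817 to 95866820 in place of 95865248 to 95865251 and keeps the length of 430 codons. The 4 bases it adds were not read here, so whether they hold a stop codon was not tested. A further 61 of 259 and 51 of 111 Got2 reads overlapped the gene without matching its splicing. In each library they lay on 1 model at the 3′ end of the gene, listed with 924 bases in replicate 1 and 1 base in replicate 2. The pseudogene Got2-ps1, 99.1% identical over 51.1% of the transcript, was given 15 reads in replicate 1 and 0 in replicate 2, so the division of Got2 reads is uncertain.

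Model shares were compared between the libraries in the 24 genes by Fisher's exact test, or a chi-square test where there were more models, adjusted by Benjamini-Hochberg over 961 genes. Of all these genes 3.85% passed, and of the 24 genes 2 passed, Fh1 and Idh3g. Fh1-203, an annotated 3-exon transcript of 936 bases with a retained intron, held 48 of 512 complete reads in replicate 1, 9.38%, and 82 of 308 in replicate 2, 26.6% (adjusted p = 2.19e-08). The full-length Fh1-201 held 89.3% and 72.4%. Fh1-203 is shorter than Fh1-201, which has 2636 bases, and shorter transcripts took larger shares of replicate 2 in general. The part of length in this difference was not tested. The Idh3g call rested on the class given in the files, since the same intron chain was placed under new splice sites in replicate 1 and under new combinations in replicate 2. With chains joined over these classes, Fh1 alone passed.

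**Figure D5:**
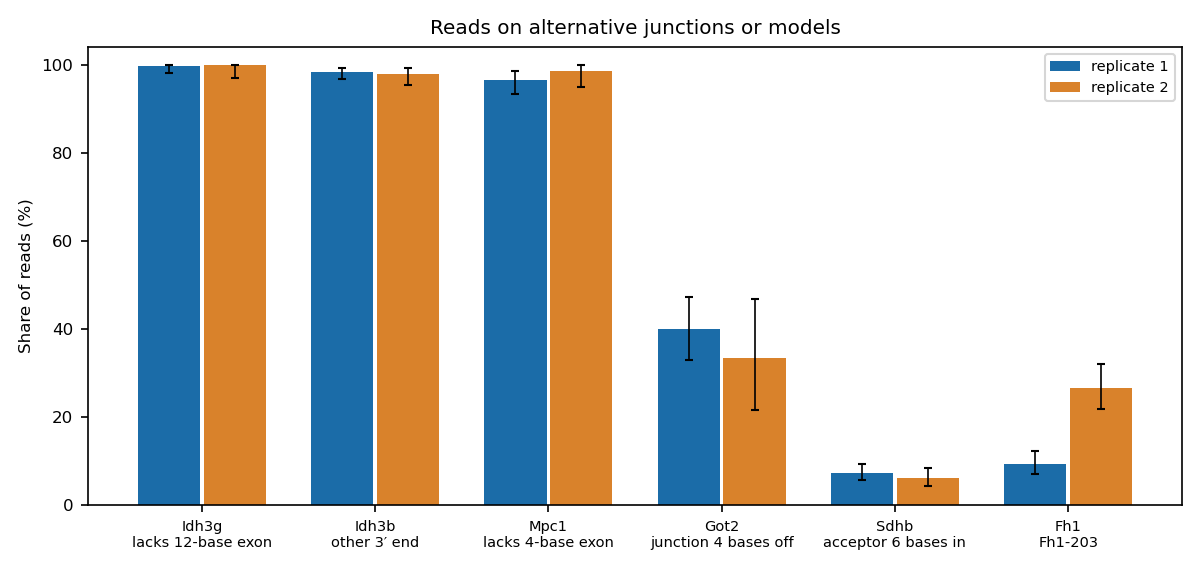
Share of reads (percent) on alternative junctions of Idh3g, Idh3b, Mpc1, Got2 and Sdhb, and of complete reads on Fh1-203, in replicate 1 (blue) and replicate 2 (orange) with exact 95% counting intervals. The unannotated junctions of Idh3g, Idh3b and Mpc1 held 96.6% or more in both libraries, and Fh1-203 differed between them.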

How the data were processed

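The authors deposited, for each library, whole read counts per transcript model and a matching annotation of the models on mm10, per the file headers. Per the labels' protocols this was a long-read pipeline. The sources used here name no aligner, read correction or version. Counts were used as deposited and summed over all models of an annotated gene. Spike-in reads were left out of the totals. The 37 genes and the wider lists were chosen with earlier results of these data known. One gene of the wider lists is not reported here. Named were all 37 genes, the leading models of the 24 genes, further models with at least 5% of complete reads in both libraries, and the 3 most abundant genes of each list. Other wider genes named with 0, 1 or 2 reads, Slc25a13 among them, were chosen after their values were seen.

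Gene shares were tested between the libraries by Fisher's exact test in genes that reached 10 reads in all, with Benjamini-Hochberg adjustment and a threshold of 0.05. Log2 ratios add 0.5 read. Length was the mean of complete models weighted by reads, and its trend the running median over 20 length bins, tested by an exact binomial test. Model shares were tested in genes with at least 50 complete reads per library, pooling models under 5 expected reads. Reading frames and sequences came from GENCODE M21 transcripts. Near-identical copies were found with BLAST 2.17.0 at 90% identity over 30% of the transcript. Python 3.11.15, pandas 2.3.3, scipy 1.17.1 and, for TMM, edgeR 4.0.16 under R 4.3.3 were used. The gene, length and model tests were checked on simulated counts that held counting error alone. These checks do not cover the wider spread seen in the data. Intervals are Clopper-Pearson at 95%. Alternatives covered classes of models, scaling, read minimums, length, overdispersion, joining of models and leaving out each library.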

Additional observations from a re-analysis of the deposited data

Results flagged for a closer look

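Reads on the strand opposite to these genes are listed in the files as separate antisense loci and were not used above. Opposite Pdk4, on chromosome 6, antisense loci held 30 reads in replicate 1 and 29 in replicate 2, between positions 5483351 and 5496033, beside 1727 and 271 reads of Pdk4 itself, and 1 of the 30 and 0 of the 29 were on spliced models. Opposite Pdp2, on chromosome 8, 1 locus in each library held 10 reads in replicate 1 and 8 in replicate 2, against 6 and 1 reads of Pdp2. Both lie above the 3 reads that a count of 0 allows. All other genes of the pathway had at most 3 antisense reads in each library. Whether the library preparation kept strand is not given in the sources used here, so the strand of unspliced reads was not tested.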

How the results depend on the processing

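No paired analysis was possible because there is 1 group of 2 libraries. With 2 libraries the SD has 1 degree of freedom, and no difference between conditions can be tested. Low counts limit Pdk3, Pdp2 and Me2, and reads shared with pseudogenes limit Mpc1 and Got2.

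The count of 17 genes that differed between the libraries fell to 4 with the length trend removed and 1 with overdispersion (background 6.40% and 1.16%). It was 17 of 36 from 5 reads (10.02%) and 20 of 31 from 50 reads (33.2%), 12 of 34 with TMM (11.7%), 18 of 33 with annotated models (12.7%) and 18 of 34 without unmatched reads (13.1%), each with the share of all genes in parentheses. Pdk4 passed under each of these alternatives, with a log2 ratio of 1.45 to 2.04, and Sdhb did not pass with length or overdispersion. Model shares differed in 13 of 27 genes when partial and unmatched reads were joined to the chains (background 33.0% of 1198 genes). They differed in 1 of 24 when complete classes were joined (background 2.08%), an alternative chosen after the data were seen. The median leading share was 90.9% with all reads as denominator, and 97.4% to 97.9% without either library.

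With annotated models alone, genes led by an unannotated model nearly vanish by construction: Mpc1 had 2.74% of its pair, Idh3g 0.0448% and Idh3a 99.0% of the NAD-linked enzyme (59.0% with complete models). Got1 had 78.4% of its pair with annotated models, 67.2% with complete models and 64.6% without unmatched reads. Idh2 had 82.02%, 81.6% and 82.04%, and Sdhc 3.66%, 3.66% and 4.58%, under the same alternatives. With the length trend removed, the log2 ratios of Idh3a, Mdh1, Ogdh and Pdha1, which had passed as higher in replicate 1, turned to -0.15, -0.07, -0.01 and -2.21e-05, none of which passed. Which of Mpc1 and Mpc2, and of Sdha and Sdhb, led by reads as assigned depended on the library kept. With the reads of its pseudogene added, Mpc1 led Mpc2 in both libraries.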
